A study of Mus musculus with 12 samples.

Results

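The 10 genes described here are Cd3e, Cd3d, Cd3g, Cd247, Lck, Zap70, Lat, Gata3, Tcf7 and Nkg7, which carry, relay or accompany the signal of the T cell receptor or belong to the killing machinery of T and NK cells. They were chosen by symbol, and all 10 were found among the 24421 symbols of the count table. Of the 12744 genes that passed the filter on low counts, 9 were of this set. Zap70 did not pass, so it has levels but no test.

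The libraries came from bone marrow of secondary recipient mice, animals given donor cells that had already passed through a first recipient. Cells that carried GFP and fell in the LSK gate (no lineage markers, with Kit and Sca-1), which holds blood stem cells and early progenitors, were sorted, and their RNA was amplified and sequenced. The donor cells were wildtype (titled Empty), miR-146aKO (titled Mir-146 KO/Empty), Runx1S291fsX300 (a truncating frameshift of the transcription factor gene Runx1, titled Runx1) or miR-146aKO/Runx1S291fsX300, with 3 libraries each and 12 in all. The labels do not say what Empty means, how mutant Runx1 entered the cells or how old the mice were. They also do not state that each library is a separate animal, and p-values therefore refer to library-to-library spread, which may be technical. Libraries are named by the identifier of their column: A015, A040 and A053 are wildtype, A047, A150 and A151 miR-146aKO, A021, A042 and A058 Runx1S291fsX300, and A001, A031 and A051 miR-146aKO/Runx1S291fsX300.

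The T cell receptor does not signal by itself. The CD3 chains and the zeta chain encoded by Cd247 carry the motifs that the kinase Lck phosphorylates, Zap70 binds there, and Zap70 in turn phosphorylates the scaffold Lat. GATA3 and TCF-1 (the product of Tcf7) are transcription factors of early T cell development, and RUNX proteins are known regulators of many T cell genes. Stem and early progenitor cells are not expected to carry a T cell receptor complex, although Gata3, Cd247 and Nkg7 are not restricted to T cells.

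The 3 CD3 genes lie side by side on mouse chromosome 9 (GRCm38). Cd3g spans 44969572 to 44980431 on the minus strand, Cd3d 44981786 to 44987339 on the plus strand and Cd3e 44998740 to 45009627 on the minus strand. Cd3g and Cd3d are read away from each other from starts 1355 bases apart, and 11400 bases separate Cd3d from Cd3e. The windows shown run from 250 bases before to 30 bases after the annotated start, 5′ to 3′ on the gene's strand, from RefSeq (GRCm38.p6), in which all 10 genes were matched with 14 starts. The CD3 windows are shown because these neighbouring genes share the high library described later, and those of Lck (its upstream start) and Lat because they hold the RUNX core letters TGTGGT or their reverse complement ACCACA, given in capitals.
Cd3g, chr9:44980402-44980681, minus strand: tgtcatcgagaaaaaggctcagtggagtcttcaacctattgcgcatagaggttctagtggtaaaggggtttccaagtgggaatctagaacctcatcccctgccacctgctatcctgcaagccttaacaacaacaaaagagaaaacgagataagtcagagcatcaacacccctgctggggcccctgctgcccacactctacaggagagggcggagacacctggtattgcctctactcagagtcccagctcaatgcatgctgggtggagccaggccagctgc
Cd3d, chr9:44981536-44981815, plus strand: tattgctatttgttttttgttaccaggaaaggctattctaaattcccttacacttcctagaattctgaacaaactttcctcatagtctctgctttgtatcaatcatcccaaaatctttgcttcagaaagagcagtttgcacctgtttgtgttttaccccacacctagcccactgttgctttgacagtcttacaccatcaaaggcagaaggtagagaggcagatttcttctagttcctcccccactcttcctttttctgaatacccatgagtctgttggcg
Cd3e, chr9:45009582-45009861, minus strand: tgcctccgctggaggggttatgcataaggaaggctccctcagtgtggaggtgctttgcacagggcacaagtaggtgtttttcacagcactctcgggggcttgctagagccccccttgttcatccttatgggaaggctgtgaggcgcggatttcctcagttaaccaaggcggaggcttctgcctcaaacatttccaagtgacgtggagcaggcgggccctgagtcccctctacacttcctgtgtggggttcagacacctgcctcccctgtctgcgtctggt
Lck, chr4:129573612-129573891, minus strand: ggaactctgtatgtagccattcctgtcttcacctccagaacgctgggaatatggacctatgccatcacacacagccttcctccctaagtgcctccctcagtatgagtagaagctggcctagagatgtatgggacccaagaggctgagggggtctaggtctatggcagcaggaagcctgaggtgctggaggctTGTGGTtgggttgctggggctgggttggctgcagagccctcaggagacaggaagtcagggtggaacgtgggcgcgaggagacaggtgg
Lat, chr7:126369539-126369818, minus strand: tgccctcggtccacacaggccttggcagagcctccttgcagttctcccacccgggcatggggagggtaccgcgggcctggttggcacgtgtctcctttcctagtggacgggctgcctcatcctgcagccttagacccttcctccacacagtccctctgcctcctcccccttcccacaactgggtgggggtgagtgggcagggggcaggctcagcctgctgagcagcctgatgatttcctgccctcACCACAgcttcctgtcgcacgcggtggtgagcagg

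The RUNX core letters were found on either strand in 4 of the 14 windows, 1 each of Lat, Lck, Nkg7 and Zap70, and in 15.6% of 32851 RefSeq windows of the same length. In the Lck window the match begins at position -58 and in the Lat window at position -5, counted from the start. None of the 3 CD3 windows holds it. The GATA letters AGATAA (or TTATCT) were in 1 of the 14 windows, that of Cd3g at position -104, against 10.7% of all windows. The ETS core CCGGAA (or TTCCGG) was in 3 windows, of Gata3, Tcf7 and Zap70, against 14.2%. The TCF-1 and LEF-1 letters CTTTGA (or TCAAAG) were in 3 windows, of Cd247, Cd3d and Zap70, against 15.2%, and Cd3d held them at positions -73 and -54. These matches describe letters only.

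Total counts ran from 3540043 to 7026393 per library, and 3 counts, taken as the floor of detection, correspond to 0.410 to 0.948 CPM. CPM is a library's counts scaled to a common total, with TMM factors. Reads were amplified and are not independent molecules, so floors and intervals cover counting error only. Mir146 had 0 counts in 11 libraries, including those of genotypes with intact miR-146a, and 14 counts in A031, which goes against its miR-146aKO/Runx1S291fsX300 label. Kit, a defining LSK gene, was measured at 24.6 to 59.7 CPM in miR-146aKO and 218 to 436 in wildtype, and Ly6a, which encodes Sca-1, at 505 to 1019 and 46.0 to 216. In Runx1S291fsX300 Kit was at 101 to 711 CPM and Ly6a at 20.4 to 222. In miR-146aKO/Runx1S291fsX300 Kit was at 164 to 219 CPM and Ly6a at 12.1 to 121. Y-linked genes averaged 0.137 to 7.99 CPM in wildtype and 24.8 to 60.4 in miR-146aKO. They averaged 6.54 to 42.4 CPM in Runx1S291fsX300 and 3.45 to 53.5 in miR-146aKO/Runx1S291fsX300. Wildtype thus had the lowest range, which overlapped those of Runx1S291fsX300 and the double genotype. Fits with the level of these genes as a covariate are given with the results. A047 stood apart from the other 11 libraries in T cell genes. It was the highest library for 8 of the 10 members, and for 7 of the 9 that were tested, while 13.3% of all tested genes had their highest level there. The results that rest on A047 are given with and without it.

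**Figure D1:**
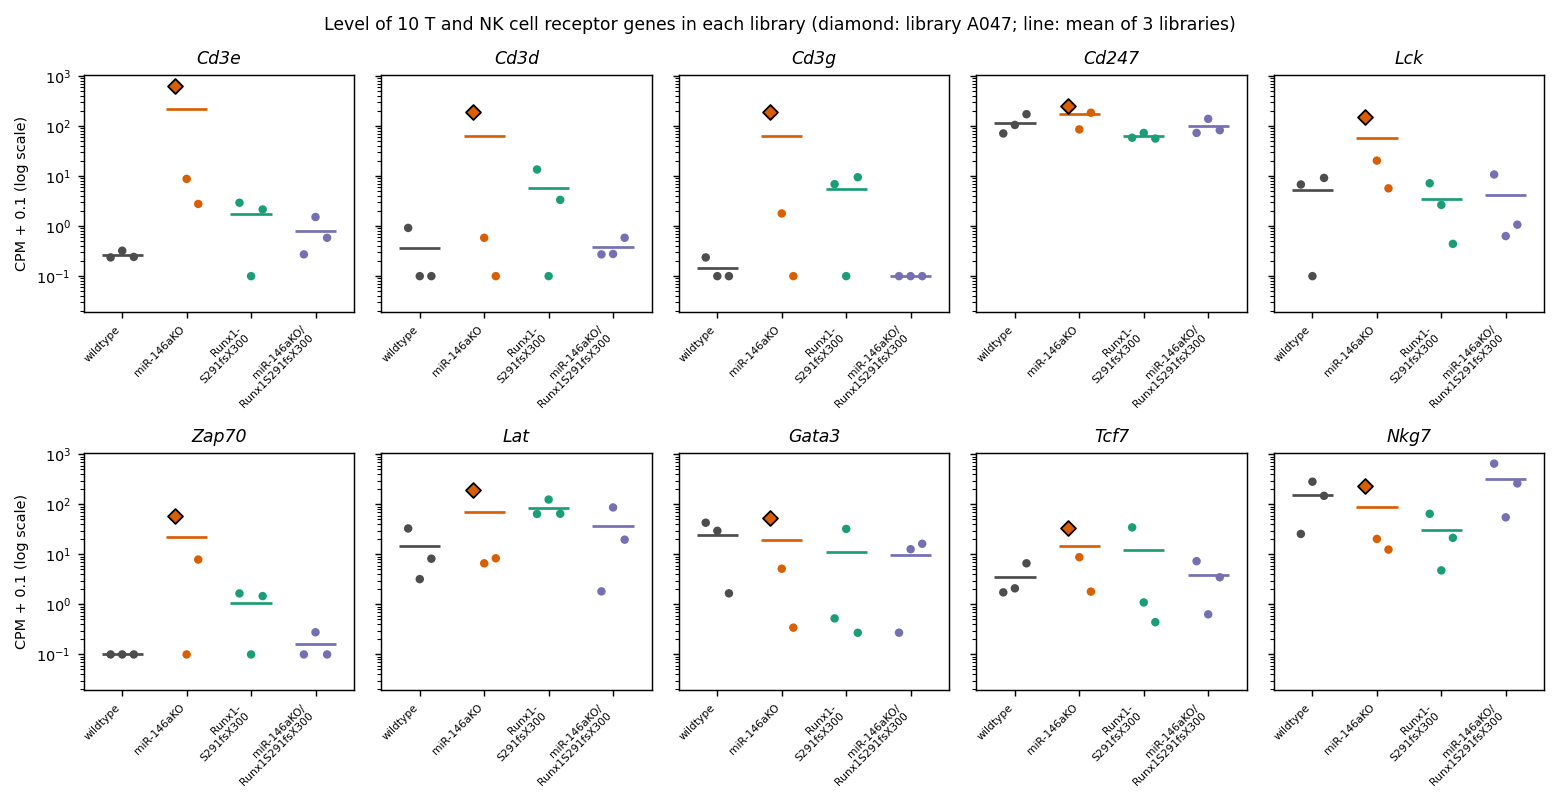
Level of each of the 10 genes in each library, as CPM + 0.1 on a log scale, by genotype. Points are libraries, the diamond is A047 and the line is the mean of 3 libraries. A047 lies far above the other 11 libraries for Cd3e, Cd3d and Cd3g, whereas Cd247 is between 56.3 and 248 CPM in every library.

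The CD3 chains, the invariant signalling subunits of the receptor, were almost absent in wildtype and high in 1 miR-146aKO library. Cd3e had 1 count in each wildtype library (0.137, 0.222 and 0.142 CPM). In miR-146aKO the library A047 reached 644 CPM, A150 had 8.71 and A151 had 2.68. Levels in Runx1S291fsX300 were 2.84, 0 and 2.05 CPM for A021, A042 and A058, and in miR-146aKO/Runx1S291fsX300 they were 0.172, 1.42 and 0.485 for A001, A031 and A051. All 3 miR-146aKO libraries thus lay above all 3 wildtype libraries, and this order did not depend on A047. The group means were 0.167 ± 0.0477 (SD, n = 3) in wildtype, 218 ± 368 in miR-146aKO, 1.63 ± 1.47 in Runx1S291fsX300 and 0.693 ± 0.650 in miR-146aKO/Runx1S291fsX300. In bulk RNA, more cells of a type and more RNA per cell cannot be told apart.

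Cd3d and Cd3g, the partners of Cd3e in the 2 CD3 dimers, had a different spread. In A047, A150 and A151 of miR-146aKO, Cd3d was measured at 189, 0.484 and 0 CPM, against 0.821, 0 and 0 in A015, A040 and A053 of wildtype. In Runx1S291fsX300 it was at 13.5, 0 and 3.25 CPM, and in miR-146aKO/Runx1S291fsX300 at 0.172, 0.178 and 0.485. The miR-146aKO and wildtype libraries overlapped for this gene. Cd3g was measured at 189.6, 1.69 and 0 CPM in the same miR-146aKO libraries, and at 0.137, 0 and 0 in wildtype. It reached 6.81 and 9.41 CPM in A021 and A058 of Runx1S291fsX300, was at 0 in A042, and had 0 counts in all 3 miR-146aKO/Runx1S291fsX300 libraries. A047 held 97.2% of the summed CPM of Cd3e over the 12 libraries, 90.9% of that of Cd3d and 91.3% of that of Cd3g.

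The 3 chains did not stand in 1 ratio across libraries. Over the 4 libraries with at least 40 counts for the 3 genes together (a limit set with the counts in view), Cd3e made up 63.0% of 3234 counts in A047 (exact 95% interval 61.3 to 64.6) and 80% of 45 counts in A150 (65.4 to 90.4). In the Runx1S291fsX300 libraries it made up 12.3% of 163 counts in A021 (7.66 to 18.3) and 14.0% of 86 counts in A058 (7.42 to 23.1). Cd3d was the largest part in A021, at 58.3% (50.3 to 65.9), and Cd3g in A058, at 64.0% (52.9 to 74.0). In A047 Cd3d and Cd3g were near each other, at 18.5% (17.2 to 19.9) and 18.6% (17.2 to 19.9). The intervals of Cd3e in the 2 miR-146aKO libraries did not overlap those in the 2 Runx1S291fsX300 libraries, a description over 4 libraries without a test. These shares do not allow for gene length, and per kilobase of exon A047 held Cd3e at 157.7, Cd3d at 104 and Cd3g at 58.01 CPM. Across the 12 libraries the log2 CPM of Cd3d and Cd3g had a Pearson r of 0.956 (0.877 without A047), and that of Cd3e and Cd3d 0.837 (0.435 without A047), where many points are at or near 0 counts.

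**Figure D2:**
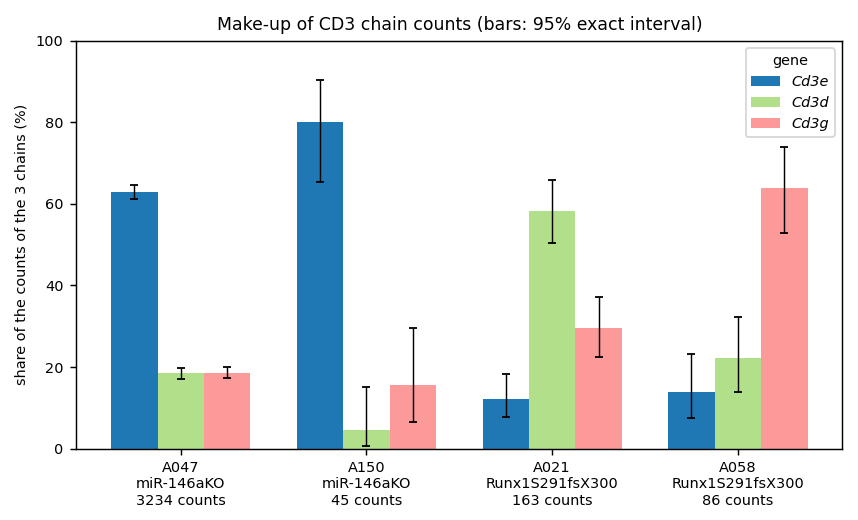
Share of Cd3e, Cd3d and Cd3g in the summed counts of the 3 genes (percent) in the 4 libraries with at least 40 such counts; bars on each column are exact 95% binomial intervals. Cd3e is the largest part in A047 and A150, Cd3d in A021 and Cd3g in A058.

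Cd247, the zeta chain that carries most of the receptor's signalling motifs and also serves Fc receptors and NK receptors, was present in every library. It was measured at 71.3, 105 and 173 CPM in wildtype, 248, 85.9 and 185 in miR-146aKO, 58.5, 73.0 and 56.3 in Runx1S291fsX300 and 73.0, 139.6 and 82.7 in miR-146aKO/Runx1S291fsX300. The Runx1S291fsX300 group was the lowest and the tightest, at 62.6 ± 9.08 CPM (SD, n = 3) against 117 ± 51.8 in wildtype, 173 ± 81.9 in miR-146aKO and 98.5 ± 36.0 in miR-146aKO/Runx1S291fsX300. Cd247 shares 3007 exonic bases with Pou2f1, a transcription factor gene on the opposite strand. The libraries do not keep strand, so reads of this stretch cannot be told apart. Pou2f1 was measured at 116 CPM in A058, its lowest library, and at 460 in A047, its highest, and its log2 CPM had a Pearson r of 0.849 with that of Cd247 over the 12 libraries.

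Lck, the kinase that starts the cascade, stood at 149.8, 20.3 and 5.60 CPM in the miR-146aKO libraries A047, A150 and A151, against 6.70, 0 and 9.11 in wildtype. It was at 7.09, 2.56 and 0.342 CPM in Runx1S291fsX300 and at 10.7, 0.533 and 0.970 in miR-146aKO/Runx1S291fsX300. The miR-146aKO libraries overlapped wildtype through A151. Zap70, the kinase that docks on the phosphorylated chains, had 0 counts in all 3 wildtype libraries. Its miR-146aKO levels were 58.5, 0 and 7.79 CPM in A047, A150 and A151. In Runx1S291fsX300 it was at 1.56, 0 and 1.37 CPM, and in miR-146aKO/Runx1S291fsX300 only A031 held it, with 1 count.

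Lat, the membrane scaffold downstream of Zap70, followed the CD3 chains loosely at most outside A047. Without that library its log2 CPM had a Pearson r of 0.0570 with Cd3e, 0.432 with Cd3d and 0.345 with Cd3g. It was at 33.0, 3.11 and 8.12 CPM in wildtype and at 194, 6.53 and 8.28 in miR-146aKO. The 3 Runx1S291fsX300 libraries, at 64.3, 125 and 65.0 CPM, all lay above the 3 wildtype libraries. In miR-146aKO/Runx1S291fsX300 the levels were 1.72, 86.9 and 19.6 CPM, a wide spread that overlapped every other group. A042, the Runx1S291fsX300 library with the highest Lat of that genotype, had 0 counts of Cd3e, Cd3d, Cd3g and Zap70. Mast cells also use Lat, and mast and basophil markers summed to 3275 CPM in A042 and 22.7 to 827 in the other 11 libraries. Their part in the level of Lat was not tested.

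The transcription factors varied mostly within the groups. Gata3, which directs early T cell and innate lymphoid development, was at 43.0, 29.5 and 1.57 CPM in wildtype and at 52.8, 5.08 and 0.243 in miR-146aKO. It was at 0.426, 32.3 and 0.171 CPM in Runx1S291fsX300 and at 0.172, 12.6 and 16.2 in miR-146aKO/Runx1S291fsX300. Each group had at least 1 library under 2 CPM and at least 1 above 16, so all groups overlapped. Tcf7, which encodes TCF-1, was highest in A021 of Runx1S291fsX300 at 34.6 CPM, where A042 and A058 had 0.996 and 0.342. A047 followed at 33.2 CPM, with A150 at 8.71 and A151 at 1.70, and wildtype was at 1.64, 2.00 and 6.55. In miR-146aKO/Runx1S291fsX300 Tcf7 was at 7.24, 0.533 and 3.39 CPM.

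Nkg7, a membrane protein of cytotoxic granules, was present in every library and did not follow the receptor genes. It was at 25.6, 285 and 148 CPM in wildtype, 230.4, 20.3 and 12.4 in miR-146aKO, 64.8, 4.69 and 21.4 in Runx1S291fsX300 and 655, 55.1 and 263 in miR-146aKO/Runx1S291fsX300. The highest library was A001, which had 1 count of Cd3e. Means were 153 ± 129.6 CPM (SD, n = 3) in wildtype, 87.7 ± 124 in miR-146aKO, 30.3 ± 31.1 in Runx1S291fsX300 and 324 ± 304 in miR-146aKO/Runx1S291fsX300. Per kilobase of exon, Nkg7 was at 716 CPM in A001, and in A047 it stood at 252, above Cd3e, Lat at 70.3, Lck at 51.2, Cd247 at 46.6, Zap70 at 19.5, Gata3 at 13.3 and Tcf7 at 12.6.

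Ordered by group mean, miR-146aKO came first for Cd3e, Cd3d, Cd3g, Cd247, Lck, Zap70 and Tcf7, Runx1S291fsX300 for Lat, wildtype for Gata3 and miR-146aKO/Runx1S291fsX300 for Nkg7. Neighbours in that order overlapped in all 3 pairs for 9 of the 10 genes. For Cd247 they overlapped in 2 of 3, where A001, the lowest miR-146aKO/Runx1S291fsX300 library at 73.04 CPM, lay just above A042, the highest Runx1S291fsX300 library at 72.98. Without A047 the mean of the other 2 miR-146aKO libraries was 5.69 CPM for Cd3e, 0.242 for Cd3d, 0.847 for Cd3g, 13.0 for Lck, 3.89 for Zap70, 7.40 for Lat and 5.21 for Tcf7. For Cd247 it was 135.6, for Gata3 2.66 and for Nkg7 16.4. Without A047 the Cd3d and Lat means lay under their wildtype means instead of above them, and those of Gata3 and Nkg7 lay further under.

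The comparison of miR-146aKO with wildtype asks what loss of miR-146a alone, a microRNA that restrains innate immune signalling, does. None of the 9 tested members passed an adjusted p of 0.05 in the quasi-likelihood test of edgeR, where 0.18% of all tested genes did. At an unadjusted p under 0.05 there were 3 of 9, Cd3e, Cd3d and Cd3g, against 15.9% of all tested genes. DESeq2 and limma-voom also called 0, with no DESeq2 adjusted p for Cd3e, Cd3d and Cd3g. The median log2 fold change over the 9 was 2.23, against -0.00 over all tested genes, with 7 of the 9 on the higher side. Cd3e was the only member whose groups did not overlap, as was true on the higher side of 10.7% of all tested genes.

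The Cd3e difference was the largest of the 9 on the log2 scale, at 10.21 ± 2.16 (SE, edgeR adjusted p = 0.061). It was 4.94 without A047 (edgeR adjusted p = 0.271). Without A042 it passed, with 10.20 and an edgeR adjusted p of 0.0365. As fitted values of genes near 0 depend on the prior count, count ratios are given too. Cd3e had 2083 counts in miR-146aKO and 3 in wildtype, a depth-scaled ratio of 1147 (95% counting interval 392 to 5565). Without A047 the 47 counts gave a ratio of 35.8 (11.5 to 180). For Cd3d, 600 against 6 counts gave 165 (75.4 to 452), but without A047 the 2 counts gave 0.762 (0.0752 to 4.26). For Cd3g, 607 counts against 1 gave 1002 (179 to 39660), and 7 counts without A047 gave 16.0 (2.06 to 721). Zap70 had 217 counts against 0, and 32 counts against 0 without A047.

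The remaining members gave smaller differences from wildtype. The log2 difference of Lck was 3.46 ± 1.63 (SE, edgeR adjusted p = 0.319), and by 1.29 without A047 (adjusted p = 0.775). Lat differed by 2.23 ± 1.34 (edgeR adjusted p = 0.449), and by -0.99 without A047 (adjusted p = 0.736). Tcf7 differed by 2.08 ± 1.59 and Cd247 by 0.57 ± 0.46 (edgeR adjusted p = 0.572 and 0.598). Nkg7 differed by -0.80 ± 1.16 (edgeR adjusted p = 0.793) and by -3.22 without A047 (adjusted p = 0.231). Gata3 differed by -0.35 ± 1.82 (edgeR adjusted p = 0.952), a sign that turned with single libraries left out.

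**Figure D3:**
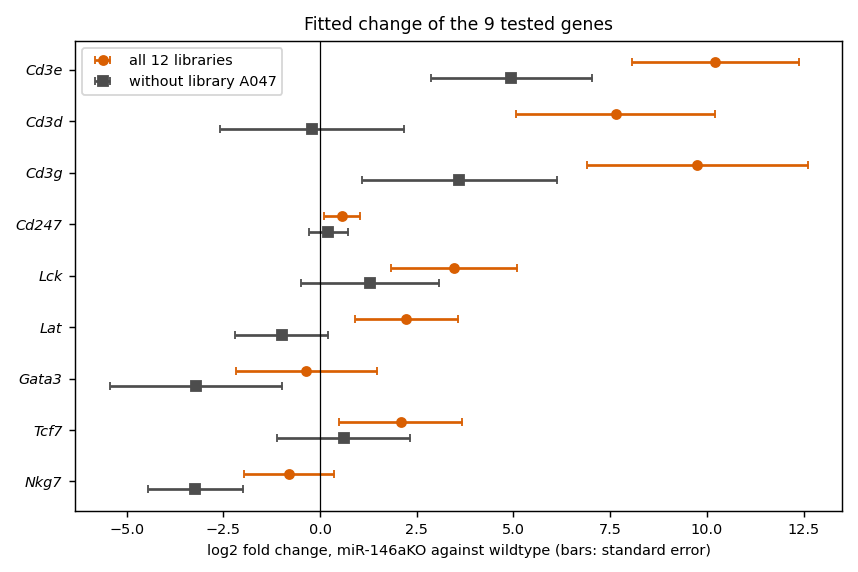
Fitted log2 fold change of miR-146aKO against wildtype for the 9 tested genes, with all 12 libraries (circles) and without A047 (squares); bars are 1 standard error. Leaving out A047 brings Cd3e from 10.21 to 4.94 and Cd3d from 7.64 to -0.21, and moves Nkg7 from -0.80 to -3.22.

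The comparison of Runx1S291fsX300 with wildtype asks what the mutation alone does. It called 0 of the 9 members and 0% of all tested genes in edgeR, with 1 member and 5.52% of genes at an unadjusted p under 0.05. DESeq2 and limma-voom called 0 members. The member at an unadjusted p under 0.05 was Cd3g, with a log2 difference of 6.19 ± 2.60 (SE, edgeR adjusted p = 0.87) and 1 count in all of wildtype. Lat, the member whose libraries did not overlap (true on the higher side of 5.72% of genes), differed by 2.52 ± 1.35 (edgeR adjusted p = 0.945). Cd3e differed by 3.16 ± 1.94 (edgeR adjusted p = 0.974), Cd247 by -0.90 ± 0.46 and Nkg7 by -2.33 ± 1.21 (adjusted p = 0.943 and 0.945). The median over the 9 was 1.81, against 0.01 over all tested genes.

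The double genotype was compared with wildtype and with each single one. Against wildtype, 0 members and 0% of genes were called in edgeR, and 0 members against 9.42% of genes had an unadjusted p under 0.05. The smallest adjusted p was that of Lat, at 1.29 ± 1.30 (edgeR adjusted p = 0.785), no member's groups failed to overlap (6.32% of genes did on the higher and 7.17% on the lower side), and DESeq2 and limma-voom called 0. Against Runx1S291fsX300, 0 members and 0% of genes were called in edgeR, and 2 members against 4.63% of genes had an unadjusted p under 0.05. These were Nkg7, at 3.42 ± 1.27 (edgeR adjusted p = 0.979), and Cd3g, whose counts in the double genotype were all 0 (adjusted p = 0.984), and DESeq2 and limma-voom called 0. Cd247 was the member whose libraries did not overlap, higher in the double genotype as 3.85% of genes were, and differed by 0.65 ± 0.46 (edgeR adjusted p = 0.999).

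Against miR-146aKO, the double genotype again gave 0 called members in edgeR, where 0.0157% of genes were called. Cd3e, Cd3d, Cd3g and Lck, 4 of 9, had an unadjusted p under 0.05, against 14.8% of genes, and DESeq2 and limma-voom called 0. Cd3e differed by -8.24 ± 1.93 (SE, edgeR adjusted p = 0.114), or -3.00 without A047, and it did not overlap on the lower side, as 9.81% of genes did not. Runx1S291fsX300 against miR-146aKO called 0 members and 0.141% of genes in edgeR, and 3 of 9 members against 13.9% of genes had an unadjusted p under 0.05. DESeq2, which gave 6 of the members an adjusted p and called 5.4% of genes, called Cd247 and Lck, 2 of the 6, and limma-voom called 0. Cd247 differed by -1.47 ± 0.47 (edgeR adjusted p = 0.178, DESeq2 adjusted p = 0.0424) and did not overlap, lower as 10.4% of genes were. Its difference was -1.11 without A047. These comparisons share libraries with those against wildtype, so they are not separate evidence.

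The interaction asks whether Runx1S291fsX300 acts differently on the miR-146aKO and wildtype backgrounds, given as the first effect minus the second. It called 0 of the 9 members and 0.0235% of genes in edgeR. DESeq2 and limma-voom called 0 members too. At an unadjusted p under 0.05 there were 4 of 9 members, Cd3e, Cd3d, Cd3g and Nkg7, against 9.46% of genes. Cd3e stood at -11.40 ± 2.64 (SE, edgeR adjusted p = 0.285), or -6.14 without A047, and Nkg7 at 4.22 ± 1.70 (adjusted p = 0.463), or 6.64 without A047.

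The test for any difference among the 4 genotypes asks each gene once. It called 1 of the 9 members, Cd3e (edgeR adjusted p = 0.0287), and 0.408% of all tested genes. The other 8 had edgeR adjusted p from 0.131 to 0.954. At an unadjusted p under 0.05 there were 5 of 9, Cd3e, Cd3d, Cd3g, Cd247 and Lck, against 14.7% of genes. The call of Cd3e was lost without A015, A040, A053 or A150, with edgeR adjusted p of 0.0586, 0.0563, 0.0696 and 0.0588, and without A047, at 0.488. It was also lost in limma-voom (adjusted p = 0.469) and with a Y-linked covariate (0.343). It held without A031, whose Mir146 counts go against its label (edgeR adjusted p = 0.0335), and in the other comparisons leaving out A031 also gave 0 called members.

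The other genes of the receptor pathway were read from a list of 37 that extends from coreceptors to downstream kinases and adaptors. In miR-146aKO against wildtype, 30 were tested and 3 passed in edgeR, all higher, against 0.18% of all tested genes. An unadjusted p under 0.05 was found for 12 of the 30, against 15.9% of all tested genes. The median log2 fold change was 1.15, against -0.00 over all tested genes. Cd2, an adhesion receptor of lymphocytes, was at 95.5, 78.4 and 82.8 CPM in A047, A150 and A151 and at 0, 0 and 0.142 in wildtype (edgeR adjusted p = 0.00344). Rasgrp1, which activates Ras downstream of Lat, was at 446, 297 and 189 CPM in miR-146aKO and at 0.274, 3.55 and 0.427 in wildtype (edgeR adjusted p = 0.0397). Ptprc, the CD45 phosphatase of all leukocytes that keeps Lck active, rose from 317 ± 58.5 to 1153 ± 101 CPM (SD, n = 3, edgeR adjusted p = 0.0322). Unlike the CD3 chains, these 3 genes were high in all 3 miR-146aKO libraries. Without A047 all 3 were still called. Cd2 was called in all 12 fits that left out 1 library, whereas Rasgrp1 and Ptprc were not called without A015, A040, A053, A150 or A151 (edgeR adjusted p up to 0.174 and 0.132), and none was called with a Y-linked covariate.

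The most abundant other genes of that list did not pass. Fyb, an adaptor that links the receptor to adhesion, was at 419 ± 37.5 CPM in miR-146aKO and 248 ± 85.2 in wildtype (SD, n = 3, edgeR adjusted p = 0.46). Lcp2, the adaptor that joins Lat to downstream enzymes, was at 292 ± 167 against 212 ± 64.5 (edgeR adjusted p = 0.71), and Vav1, an activator of the cytoskeleton downstream of the receptor, at 177 ± 57.7 against 152 ± 70.6 (adjusted p = 0.864). In Runx1S291fsX300 against miR-146aKO, 2 of 30 were called lower, Ptprc and Cd2, against 0.141% of all tested genes called. In the double genotype against miR-146aKO and in the interaction 1 was called lower, Cd2, against 0.0157% and 0.0235% of genes called. In Runx1S291fsX300 and in the double genotype, each against wildtype, 0 of 30 were called in edgeR and 2 had an unadjusted p under 0.05, as 5.52% and 9.42% of all genes did.

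Among 24 T lineage transcription factors, 19 were tested and Ets1, a factor of lymphocyte development, was the 1 called in miR-146aKO against wildtype. Of all tested genes 0.18% were called. An unadjusted p under 0.05 was found for 7 of the 19, against 15.9% of all tested genes. Ets1 was at 186, 261 and 163 CPM in miR-146aKO and at 30.5, 11.8 and 15.5 in wildtype, a log2 difference of 3.40 ± 0.63 (SE, edgeR adjusted p = 0.0493). The call held without A047 (0.0346) and was lost without A015, A040, A053, A150 or A151, with adjusted p up to 0.174, and with a Y-linked covariate. Ets1 was also called lower in Runx1S291fsX300 against miR-146aKO, where 0.141% of all tested genes were called. It was at 22.6, 10.7 and 12.7 CPM in A021, A042 and A058. Ikzf3, a factor of mature lymphocytes, was at 946 ± 295 CPM against 4.95 ± 8.21 (SD, n = 3, edgeR adjusted p = 0.114). Myb, a progenitor factor, was at 297 ± 213 against 1016 ± 465 (edgeR adjusted p = 0.131), and it was called lower without A047, by DESeq2 and without a count filter. Ikzf1, at 534 ± 44.7 against 357 ± 138, and Runx3, at 169.9 ± 134 against 173 ± 63.4, did not pass (edgeR adjusted p = 0.494 and 0.989).

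Among 38 NK and cytotoxic genes, 37 were in the table, 20 were tested and Sh2d1b1 was called in miR-146aKO against wildtype. Of all tested genes 0.18% were called. An unadjusted p under 0.05 was found for 12 of the 20, against 15.9% of all tested genes. Sh2d1b1, an adaptor of NK cell receptors, was at 50.9, 42.8 and 34.8 CPM in miR-146aKO and had 0 counts in the 3 wildtype libraries (edgeR adjusted p = 0.0289). It was still called without A047, but not without A015, A040, A053, A150 or A151 (adjusted p up to 0.101). It was measured at 5.39, 0.711 and 9.41 CPM in Runx1S291fsX300 and at 19.3, 10.7 and 26.9 in miR-146aKO/Runx1S291fsX300. Sh2d1b1 and Sh2d2a were called in the test of any difference (edgeR adjusted p = 0.0287 for each), as 0.408% of all tested genes were. Sh2d2a, an adaptor that binds Lck, was at 222, 26.6 and 91.3 CPM in miR-146aKO and 1.09, 0 and 0 in wildtype. Tyrobp and Fcer1g, signalling chains used by NK and myeloid receptors alike, were at 304 ± 219 and 339 ± 267 CPM against 63.8 ± 46.3 and 42.8 ± 37.9 (SD, n = 3, edgeR adjusted p = 0.149 and 0.192). Slamf7 was at 299 ± 56.3 against 26.8 ± 39.8 (edgeR adjusted p = 0.267).

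Some genes of these lists were looked up in A047 after the values were seen. Of the 37 receptor pathway genes 23 were highest in A047, and of the 37 NK and cytotoxic genes 26. Over all tested genes the share was 13.3%. The list counts do not compare directly with it, since they include genes that did not pass the filter (30 and 20 of the 37 were tested). Cd8a, a coreceptor of cytotoxic T cells, stood at 149, 5.57 and 0.243 CPM in A047, A150 and A151, while Cd4 was at 226, 297 and 158, so Cd4 did not separate A047 from the other 2. Bcl11b, a factor that fixes T cell identity, was at 75.9 CPM in A047 and at most 0.851 elsewhere. The regulatory T cell factor Foxp3 was at 241 CPM in A047 and 7.06 to 42.1 elsewhere. Ccl5, a chemokine of effector T and NK cells, was at 776 CPM in A047 and at most 29.3 elsewhere, and the receptor chain Il2rb at 404 and at most 1.46. Of the 14 NK cell receptor genes of that list, 7 were highest in A047 and 4 had 0 counts there. Klrc1, Klrg1, Klrk1 and Cd226 were at 104, 81.5, 22.1 and 142 CPM in A047, and at most 38.5, 0, 11.1 and 6.55 elsewhere. Klrd1 was at 1.90 CPM in A047 and at most 0.222 elsewhere. Ncr1, by contrast, was at 0 in A047, and Klrb1c was at 31.6, under A040 and A015 of wildtype at 71.1 and 55.4.

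A021, the Runx1S291fsX300 library with the most Cd3d, was the only library with Ptcra, which encodes the alpha chain of the receptor of immature T cells, at 14.9 CPM, and it held Cd8a at 9.79. A058 of the same genotype held Cd8a at 10.3 CPM and no Ptcra. A042, with no counts of the CD3 chains, had 0 counts of Cd8a as well. These genes too were chosen after their values were seen.

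Innate lymphoid genes were read as well, since such cells also use Gata3 and Il7r. Of 14, 10 were tested and 0 were called in edgeR or limma-voom in miR-146aKO against wildtype, while DESeq2 called 3 of the 9 it tested, against 6.56% of all genes, and 4 had an unadjusted p under 0.05 in edgeR, against 15.9%. The interleukin 33 receptor gene Il1rl1 was at 426 CPM in A042, 123 in A047 and 61.1 in A031, and at most 23.1 elsewhere. Mast and basophil markers summed to 3275 CPM in A042, 70.5 in A047 and 827 in A031. Their part in the level of Il1rl1 was not tested. Il7r, the receptor of a lymphoid survival signal, was at 380 CPM in A047, 81.0 in A042 and at most 24.2 elsewhere. Rora was at 43.9 ± 58.4 CPM in miR-146aKO and 32.3 ± 28.3 in wildtype, and Hes1, a Notch target, at 29.8 ± 31.8 and 1.18 ± 0.965 (SD, n = 3, edgeR adjusted p = 0.908 and 0.188).

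Markers of other cells were summed, first in miR-146aKO and wildtype. Of the 17 B lineage, 16 monocyte and macrophage, 13 neutrophil and 16 LSK and stem cell markers, edgeR called 1 (Cd79b, named after its values were seen), 0, 0 and 0 in this comparison. Over all tested genes edgeR called 0.18%. The counts with an unadjusted p under 0.05 in edgeR were 13, 12, 0 and 7, against 15.9% of all tested genes. DESeq2 called 10, 10, 0 and 2, the last out of 15 that it tested, against 6.56% of all genes. In limma-voom the calls were 2, 1, 0 and 0, against 76 of all 12744 genes. The B lineage markers summed to 6611 to 11688 CPM in miR-146aKO and 65.0 to 539 in wildtype, and were all present in A150 and A151. Jchain, a gene of antibody-secreting cells, carried much of that sum: A047 had 10503 CPM of it, A150 2924 and A151 7649. Without it the other 16 summed to 684, 3686 and 4039 CPM in these 3 libraries and to 57.3, 94.4 and 141 in wildtype. In A047, 1 of the 17 was at its highest, with the defining B cell gene Pax5 at 0.316 CPM against 134 in A150. The 16 monocyte and macrophage markers summed to 1435 to 10546 CPM in miR-146aKO and 395 to 1324 in wildtype, and A047 was the lowest of the 3. The 13 neutrophil markers, by contrast, overlapped, at 4014 to 12283 and 2339 to 28839 CPM. Mpo carried much of the highest sums, at 7738 CPM in A047 and 22961 in A040 of wildtype. The sums hide a split, since the log2 difference was positive for 9 of the 13. It was negative for Elane, Mpo, Prtn3 and Ctsg (-0.80, -1.72, -1.37 and -1.34). The 16 LSK and stem cell markers summed to 885 to 1752 CPM in miR-146aKO and 1973 to 3801 in wildtype. Ly6a, higher in miR-146aKO, made up 1019, 505 and 742 CPM of the sums of A047, A150 and A151. The log2 difference was positive for 2 of the 16. In Runx1S291fsX300 these LSK markers summed to 455 to 3340 CPM and in the double genotype to 371 to 1810, so low sums were not particular to miR-146aKO. Monocyte and macrophage markers were at 144 to 1470 and 2048 to 8124 CPM in these genotypes. B lineage markers were at 34.9 to 824 and 106 to 529, and neutrophil markers at 2685 to 57958 and 13594 to 60108. The part of these cells in the levels of the 10 genes, or of Cd2, Rasgrp1, Ptprc, Ets1 and Sh2d1b1, was not tested.

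**Figure D4:**
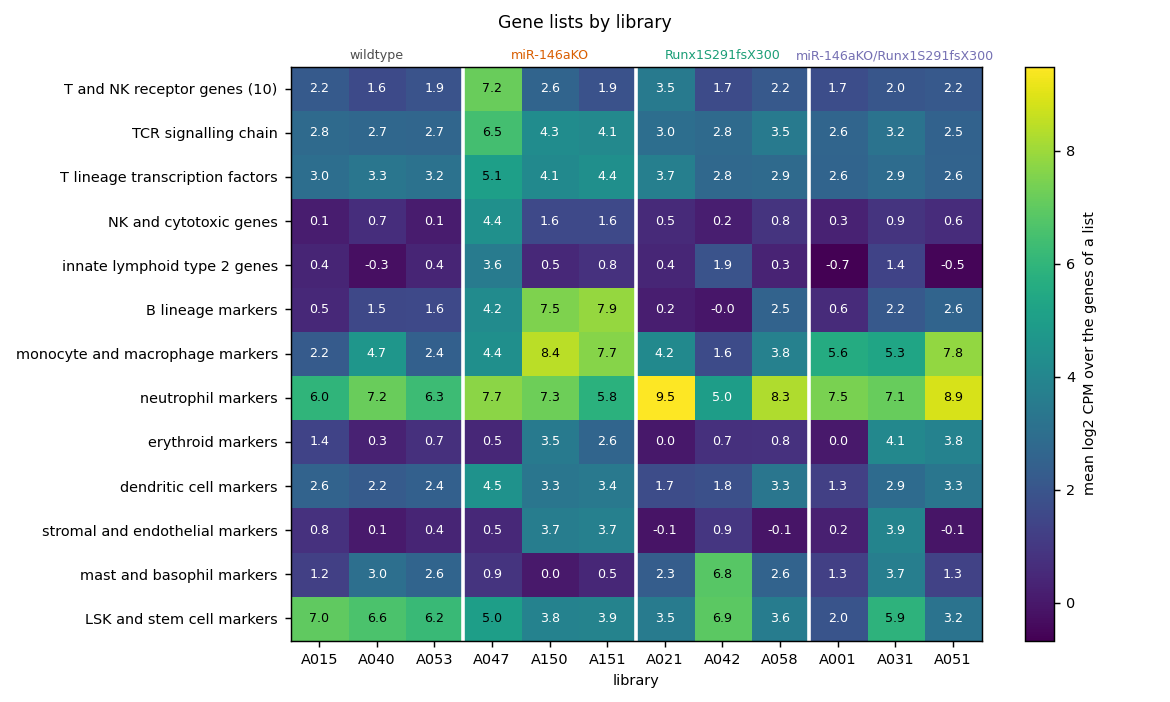
Mean log2 CPM of each gene list (rows) in each of the 12 libraries (columns), grouped by genotype, with the value printed in each cell. The 10 T and NK receptor genes reach 7.2 in A047 and 1.6 to 3.5 in the other libraries, while B lineage markers are highest in A151 and A150.

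Genes with a pattern like that of the CD3 chains were sought by Pearson r with the mean log2 CPM of Cd3e, Cd3d, Cd3g and Cd247 over the 12 libraries. The 9627 candidates were tested genes with a mean log2 CPM of at least 2, without members and predicted gene models. Genes near 0 outside A047 that did not pass the filter, such as Il2rb and Bcl11b, could therefore not be found. The candidates of highest r were Psmf1 (r = 0.924), Zfc3h1 (0.861), Bnip3l (0.855), Fbxw9 (0.835), Uvrag (0.823), Cnnm2 (0.818), Ube2l3 (0.816) and Tiparp (0.803). Without A047 the r of Psmf1 was 0.643, that of Zfc3h1 0.650 and that of Fbxw9 0.575, and those of the other 5 were between -0.0172 and 0.422. Psmf1, an inhibitor of the proteasome, was at 152 CPM in A047 and 35.6, 35.8 and 47.1 in wildtype. The 12 points share library depth and composition, and the likeness rested mostly on 1 library.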

How the data were processed

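The deposited table holds whole-number counts of reads per gene symbol, which the authors made with HISAT2 2.0.4 and featureCounts 1.5.2 on mm10 after FastQC 0.11.2, per the submitters' processing notes. Per the labels' protocols, RNA was amplified with NuGEN Ovation v2 and made into Nextera XT libraries, which do not keep strand. The sources used here do not give the annotation, the strand setting or the handling of reads with several matches. No column was left unused (0). Columns carry a genotype but no replicate number.

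Counts were tested with edgeR 4.0.16 (R 4.3.3): TMM scaling, the default filter (minimum count 10), 1 quasi-likelihood fit over 12 libraries and 4 genotypes, and Benjamini-Hochberg adjustment over the 12744 genes kept. The standard error is the log2 fold change over the square root of F. The common biological coefficient of variation was 0.809. Levels are CPM with TMM-scaled library sizes, and log2 CPM uses a prior count of 2. Alternatives were DESeq2 1.42.0, its size factors, limma-voom (limma 3.58.1), no filter, a Y-linked covariate and leaving out each library. Coordinates come from GENCODE M21 (GRCm38). The members, lists and rule for named genes were chosen with earlier results of these data known. The rule named all members, the 4 most abundant genes and every called gene of each T, NK and innate lymphoid list, and the 8 genes most like the CD3 chains. A search by symbol found 0 rows of T cell receptor gene segments, so these were not analysed here. No p-value is given for a list.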

Additional observations from a re-analysis of the deposited data

How the results depend on the processing

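With no filter on low counts, which brings in genes with counts in a single library, edgeR tested 19210 genes. In miR-146aKO against wildtype it called Zap70, Cd3g, Cd3d and Cd3e, 4 members (0 with the filter), against 796 of all genes. Of these, Zap70 alone had not passed the filter, and the edgeR adjusted p of Cd3e went from 0.061 to 1.56e-09. Called members were 1 in Runx1S291fsX300 against wildtype (162 of all genes) and 2 in the double genotype against Runx1S291fsX300 (144). They were 4 in the double genotype against miR-146aKO (549) and 2 in Runx1S291fsX300 against miR-146aKO (702). In the interaction 5 were called (268 of all genes), and for any difference 6 (1359), against 1 with the filter. DESeq2 called 2 in Runx1S291fsX300 against miR-146aKO and, for any difference, Lck in place of Cd3e, for which it gave no adjusted p. For any difference, limma-voom and the Y-linked covariate called 0 members. Leaving out 1 library gave 0 to 1 called members in miR-146aKO against wildtype and 0 to 1 for any difference. The double genotype against wildtype had 0 called members in all 17 other settings. DESeq2 size factors within edgeR changed no count of called members.

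Over all genes, miR-146aKO against wildtype gave 23 calls in edgeR, 827 in DESeq2, 76 in limma-voom, 796 without the filter and 0 with the Y-linked covariate. In the same order the calls were 0, 115, 0, 162 and 0 for Runx1S291fsX300 against wildtype, 0, 191, 0, 256 and 0 for the double genotype against wildtype, and 0, 78, 0, 144 and 0 for it against Runx1S291fsX300. They were 2, 645, 12, 549 and 3 for the double genotype against miR-146aKO (13 with DESeq2 size factors in edgeR), 18, 680, 43, 702 and 6 for Runx1S291fsX300 against miR-146aKO, 3, 166, 0, 268 and 2 for the interaction and 52, 861, 26, 1359 and 1 for any difference.

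Signs of log2 fold changes in miR-146aKO against wildtype turned for 3 members. Cd3d was -0.21 without A047 (7.64 with it, -0.21 to 11.38 over the libraries left out). Lat was -0.88 with the Y-linked covariate and -0.99 without A047 (-0.99 to 3.61). Gata3 was 0.31 without A015, 0.10 without A150 and 0.22 without A151 (-3.20 to 0.31). Cd3e kept its sign, from 4.94 without A047 to 10.79. The causes were not tested. The settings for the other gene lists were added after seeing the data. No paired analysis was possible because the columns carry no replicate number. At this depth the 3-count floor limits statements on Cd3d, Cd3g and Zap70 in most libraries.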
